A study of Mus musculus with 4 samples.

Results

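Oxidative phosphorylation genes were compared between mouse embryonic stem cells at day 4 (d4) and day 2 (d2) of cardiogenic mesoderm differentiation. The set held the 89 protein-coding genes of the count table whose symbols begin with Ndufa, Ndufb, Ndufc, Ndufs, Ndufv, Uqcr, Atp5, mt-Nd, mt-Co, mt-Atp or mt-Cyt, plus Sdha to Sdhd, of 55487 genes in all. By genome, 76 were nuclear and 13 mitochondrial. By role, the nuclear genes were 7 core and 29 accessory subunits and 8 assembly factors of complex I, the Ndufa4 and Ndufa4l2 pair, 4 genes of complex II, 8 of complex III and 18 of complex V, and the mitochondrial genes were 7 of complex I, 1 of complex III, 3 of complex IV and 2 of complex V.

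The cells were wild-type E14-Tg2a cells, a feeder-free mouse embryonic stem cell line. At d4 they were grown, after dissociation of the embryoid bodies at 48 h, for 40 h as reaggregates with 8 ng/ml human Activin A, 0.5 ng/ml human BMP4 and 5 ng/ml human VEGF. At d2 they were grown as embryoid bodies in the same serum-free medium, before those factors. There were 2 libraries per day, which the study's text describes as independent differentiation experiments, so that all values come from 1 cell line. The libraries held 11397439 and 16851485 counts at d4 and 12068584 and 14038796 at d2.

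The 5 complexes of oxidative phosphorylation sit in the inner mitochondrial membrane. Complexes I and II pass electrons from NADH and succinate to ubiquinone, complex III passes them on to cytochrome c and complex IV to oxygen, and complex V, the ATP synthase, uses the resulting proton gradient to make ATP. Most subunits are encoded in the nucleus, whereas a small core of complexes I, III, IV and V is transcribed as long polycistronic RNAs from both strands of the mitochondrial genome. Pluripotent cells are known to rely strongly on glycolysis, and respiration is known to gain weight as many lineages mature.

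Markers of the cell states moved strongly between the days. All 8 pluripotent and epiblast markers fell, with summed levels of 220 to 240 CPM at d4 against 4740 to 5700 CPM at d2. CPM are counts relative to the library's total over the genes tested, scaled with TMM factors. Utf1 was at 0 at d4. All 6 mesoderm, 8 endothelial and 7 primitive blood markers rose, with summed levels of 681 to 739, 997 to 1310 and 519 to 700 CPM at d4 against 2.21 to 2.96, 26.3 to 31.1 and 2.94 to 3.42 CPM at d2, where Hand1 and Alas2 were at 0. All 3 tested trophoblast markers rose, and the summed level of the 4 listed genes was 386 to 394 CPM at d4 against 16.2 to 21.1 CPM at d2. Krt8 alone gave 367 and 376 CPM at d4 and 20.9 and 15.6 CPM at d2. The untested marker, Elf5, had 1 and 0 counts at d4 and was at 0 at d2. All 4 neuroectoderm markers fell, to 4.53 to 5.16 CPM at d4 against 56.6 to 69.2 CPM at d2. Of 5 tested cardiomyocyte markers, Tnnt2 rose and Myh6 and Actn2 fell, the summed level of the 6 listed genes was 19.3 to 21.8 CPM at d4 against 24.1 to 34.4 CPM at d2, and Nppa was at 0 on both days. Of 5 endoderm markers, 1 passed the filter, Sox17, which rose, and their summed level was 5.35 to 10.3 CPM at d4 against 0.573 to 0.759 CPM at d2, where Sox17, Afp and Ttr were at 0. The part of this change in cell makeup in the values below was not tested, and in bulk RNA fewer cells of a type and less RNA per cell cannot be told apart.

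Few oxidative phosphorylation genes passed the test between the same days. Of the 85 members that passed the filter on low counts, 1 was higher at d4, Ndufa4l2, and 0 were lower at an adjusted p under 0.01 in edgeR's quasi-likelihood test, whereas 12.9% of the 14932 genes tested were higher and 11.3% were lower. At an unadjusted p under 0.05 there were 8 members, or 9.41%, against 47.2% of all genes tested. The fold change was under 2 in either direction (an absolute log2 fold change under 1) for 82 members, or 96.5%, against 65.0% of all genes. The 95% interval of the log2 fold change lay within 1 of 0 for 57 of the 75 nuclear members tested but for 0 of the 10 mitochondrial members tested, against 32.1% of all genes. Changes of 2-fold thus lay outside the interval for most nuclear members and inside it, in at least 1 direction, for each mitochondrial member.

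The estimates leaned below 0. The log2 fold change was negative for 53 of 75 nuclear members, with a median of -0.18, beside 51.4% of all genes and a median of -0.03. Both d4 libraries were below both d2 libraries for 35 of the 75 tested nuclear members and above them for 9 of the 75. Over all genes tested the shares were 35.2% and 35.8%. The nuclear members' share below was thus somewhat higher than that of all genes, whereas their share above was much lower. All 10 tested mitochondrial members overlapped between the days. The median over nuclear members was -0.05 without d4 replicate 2, and summed nuclear levels were 9945 and 8872 CPM at d4 against 10210 and 10280 CPM at d2. The 4 members that failed the filter were mt-Nd3, mt-Nd4l, mt-Atp8 and a second row named Atp5o, which was at 0 in all libraries.

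**Figure D1:**
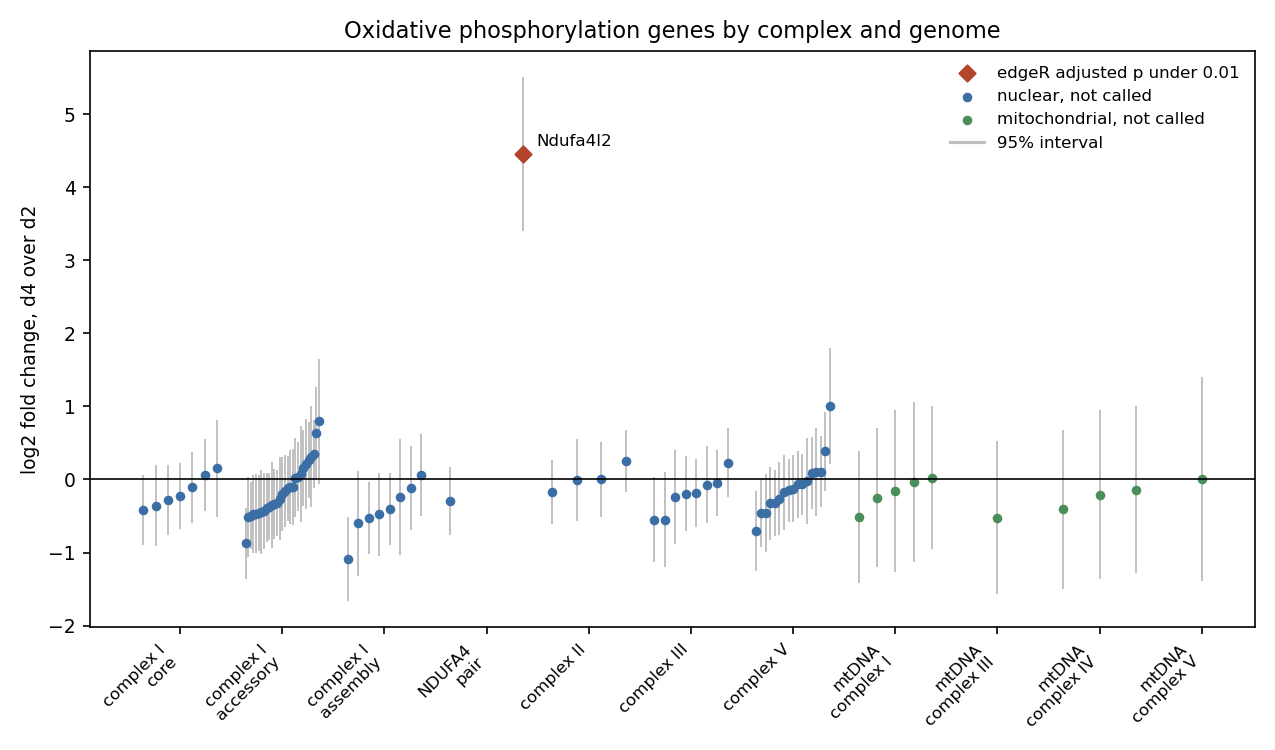
The log2 fold change at d4 over d2 of each of the 85 tested members (points, with 95% intervals as bars), in columns by complex and genome. Ndufa4l2, at 4.45, stands alone, and the mitochondrial genes on the right have the widest intervals.

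Ndufa4l2 encodes a paralog of NDUFA4, and its transcript is known to be induced by low oxygen; NDUFA4 itself was first described in complex I and later placed in complex IV. Ndufa4l2 (ENSMUSG00000040280.10, mm10 chr10:127514967-127517154 in the GENCODE M21 annotation) had 352 and 328 counts, or 29.8 and 19.3 CPM, in the d4 libraries, against 19 and 9 counts, or 1.55 and 0.68 CPM, in the d2 libraries. Both d4 libraries were far above both d2 libraries. The log2 fold change was 4.45 (SE 0.44, edgeR adjusted p = 0.000397), a 21.9-fold higher level with a 95% interval of 10.5 to 45.5. The direction held without either d2 library, but with 1 library left at d2 no gene of the whole table passed edgeR's threshold, and Ndufa4l2 then had adjusted p = 0.0222 or 0.0259.

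Ndufa4 had 204 and 174 CPM at d4 against 218 and 243 CPM at d2. Its d4 libraries were below its d2 libraries, and the log2 fold change of -0.29 (95% interval -0.75 to 0.18) was not called. As a share of the counts of the pair, Ndufa4l2 made up 12.7% and 10.0% at d4 against 0.707% and 0.28% at d2. Ndufa4 thus gave most of the pair's counts in all 4 libraries.

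Complex I takes up electrons through core subunits that carry the flavin and iron-sulfur clusters. Of the 7 nuclear core genes, 0 were called, their median log2 fold change was -0.23 and all 7 intervals lay within 1 of 0. Over all genes tested, 24.3% were called, the median was -0.03 and 32.1% of intervals lay within 1 of 0. Ndufs1, the largest iron-sulfur subunit, had 181 and 195 CPM at d4 against 226 and 276 CPM at d2. Its d4 libraries were below its d2 libraries by less than the test could call, with a log2 fold change of -0.42 (95% interval -0.89 to 0.05).

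The 29 accessory subunits surround this core and are needed for its assembly and stability. None was called, with 19 negative and 10 positive estimates and a median of -0.20. Over all genes tested, 24.3% were called, 51.4% were negative and the median was -0.03. Ndufs4, a subunit of the NADH-oxidising arm whose loss causes a Leigh-like disease in mice, had 69.3 and 79.5 CPM at d4 against 124 and 149 CPM at d2. The days did not overlap, and the log2 fold change of -0.87 (SE 0.21) missed the threshold with an edgeR adjusted p of 0.0148. Ndufa8, a subunit on the intermembrane side, had 53.7 and 41.9 CPM at d4 against 36.5 and 25.0 CPM at d2. It was among the few members with both d4 libraries above both d2 libraries, with a log2 fold change of 0.64 (95% interval 0.01 to 1.26) that was not called. Ndufa7, the accessory subunit with the highest level per kb of the longest transcript (330 TPM, but 156 TPM by the union of exons, below Ndufb11 at 285 TPM), had 75.8 and 60.6 CPM at d4 against 110 and 84.4 CPM at d2, without a call.

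Assembly factors, which help to build complex I and are not part of it, had the lowest median of the nuclear groups, at -0.44. Of the 8 genes, 7 were negative and none was called, beside 51.4% negative and 24.3% called over all genes tested. Ndufaf3, which acts in an early step with Ndufaf4, had 79 and 104 counts, or 6.69 and 6.12 CPM, at d4 against 167 and 179 counts, or 13.7 and 13.6 CPM, at d2. The libraries of a day agreed closely and the days were well apart, with a log2 fold change of -1.09 (SE 0.24) and an edgeR adjusted p of 0.0114. Ndufaf3 and Ndufs4 were both called lower under several of the other settings, among them DESeq2. Ndufaf4 had 331 and 725 counts at d4 against 374 and 698 at d2, and its scaled levels overlapped between the days. Of the windows of 75 bases of Ndufaf2, 63.2% also occurred in transcripts of other genes, so its value is less certain. Summed over the 8 factors the levels were 143 and 145 CPM at d4 against 164 and 204 CPM at d2.

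**Figure D2:**
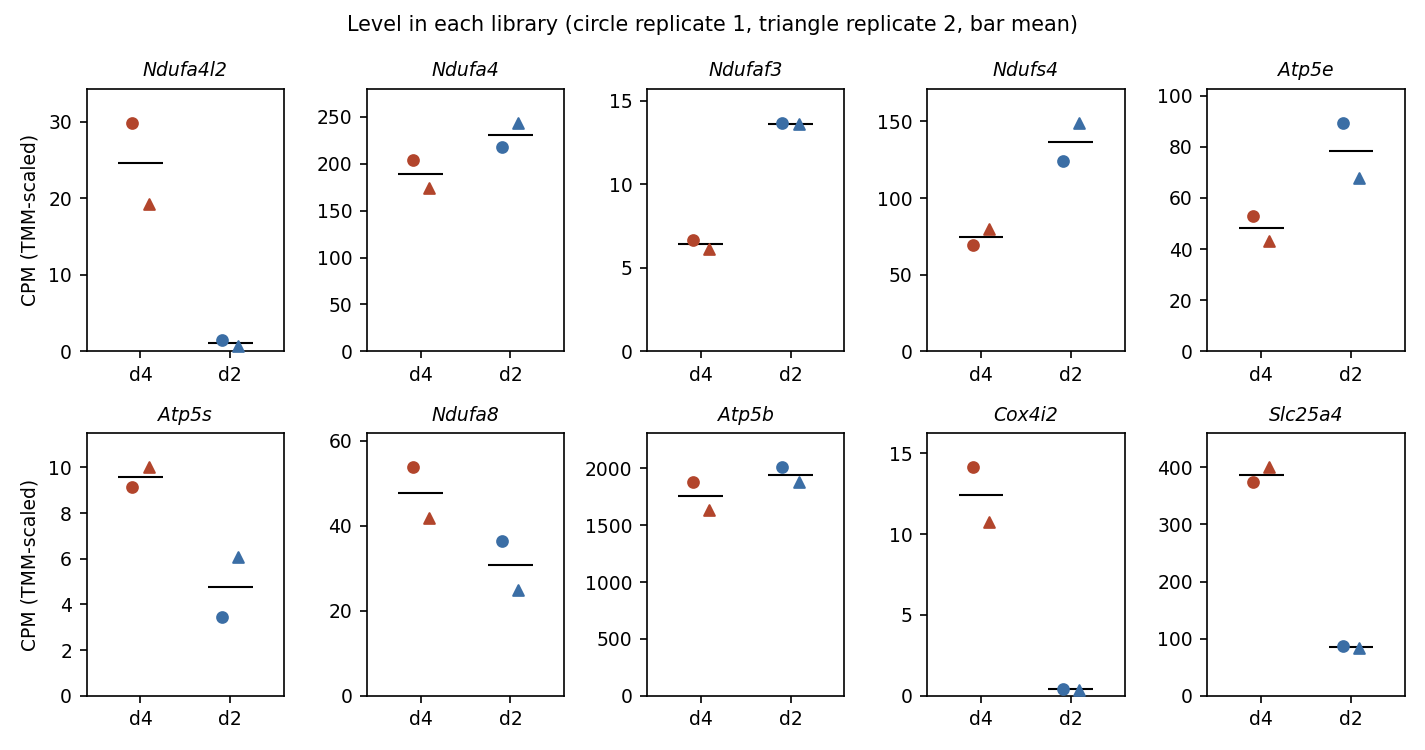
Level in each library (TMM-scaled CPM, linear axis from 0) of 8 members and of Cox4i2 and Slc25a4, d4 left and d2 right of each panel, with circles for replicate 1, triangles for replicate 2 and a bar at the mean. Ndufa4l2, Cox4i2 and Slc25a4 have d4 libraries several times above their d2 libraries, whereas Atp5b, Ndufa4 and the others lie closer together.

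Complex II, succinate dehydrogenase, is the one complex that also works in the tricarboxylic acid cycle and has only nuclear subunits. Its 4 genes had the median nearest 0 of the nuclear groups, at -0.0039. Sdha, the flavoprotein that oxidises succinate, had 323 and 328 CPM at d4 against 267 and 279 CPM at d2. The d4 libraries were above the d2 libraries by little, with a log2 fold change of 0.25 (95% interval -0.17 to 0.68), and Sdhb, the iron-sulfur subunit, leaned the other way at -0.17. Sdhd, a membrane anchor, had 225 and 180 CPM at d4 against 182 and 222 CPM at d2, with overlapping days.

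Complex III, the cytochrome bc1 complex, also had no called gene among its 8 nuclear members, and its median was -0.19. Over all genes tested, 24.3% were called and the median was -0.03. Uqcrh, the hinge protein and the most abundant member per length, had 263 and 217 CPM at d4 against 281 and 264 CPM at d2. Uqcrb, which binds near the ubiquinone site, had 61.5 and 96.9 CPM at d4 against 103 and 129 CPM at d2. The days did not overlap for Uqcrb, but its libraries of 1 day differed by about as much as the days did, and the log2 fold change of -0.55 had a 95% interval of -1.19 to 0.10. Uqcrc1, a core protein facing the matrix, was the single positive estimate at 0.23.

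Complex V held the nuclear members most abundant per length. Atp5b, the catalytic beta subunit, had 1880 and 1634 CPM at d4 against 2008 and 1884 CPM at d2, and Atp5a1, the alpha subunit, had 1298 and 1180 CPM at d4 against 1300 and 1296 CPM at d2. Their log2 fold changes were -0.15 (95% interval -0.58 to 0.29) and -0.07 (-0.49 to 0.35). Per length of the longest transcript, Atp5b stood at a mean of 2480 TPM (counts per kb of transcript, scaled to the same total in each library) over the 4 libraries, beside a median of 147 TPM over the nuclear members. The summed level of complex V was 5462 and 4816 CPM at d4 against 5513 and 5560 CPM at d2, and d4 replicate 2 stood lowest in this sum as in the sums of complex I subunits and of complex III.

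A pair of complex V genes lay furthest from 0. Atp5e, the epsilon subunit of the catalytic head, had 53.1 and 43.3 CPM at d4 against 89.2 and 67.9 CPM at d2, and Atp5s, known as coupling factor B, had 9.14 and 10.0 CPM at d4 against 3.44 and 6.08 CPM at d2. Neither gene had overlapping days. The log2 fold changes were -0.71 (SE 0.23, edgeR adjusted p = 0.0501) and 1.01 (SE 0.33, edgeR adjusted p = 0.0532), in opposite directions.

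Subunit c, which forms the rotating ring, is made from 3 genes that encode the same mature protein. Of their summed counts, Atp5g3 gave 69.4% and 63.5% at d4 against 52.9% and 64.9% at d2, Atp5g1 gave 19.3% and 21.7% at d4 against 30.6% and 22.4% at d2, and Atp5g2 gave 11.3% and 14.8% at d4 against 16.5% and 12.7% at d2. The Atp5g3 shares overlapped between the days, since d2 replicate 2 lay between the d4 libraries. Of the 75-base windows of Atp5g2, 35.8% also occurred in transcripts of other genes, so its share is less certain.

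**Figure D3:**
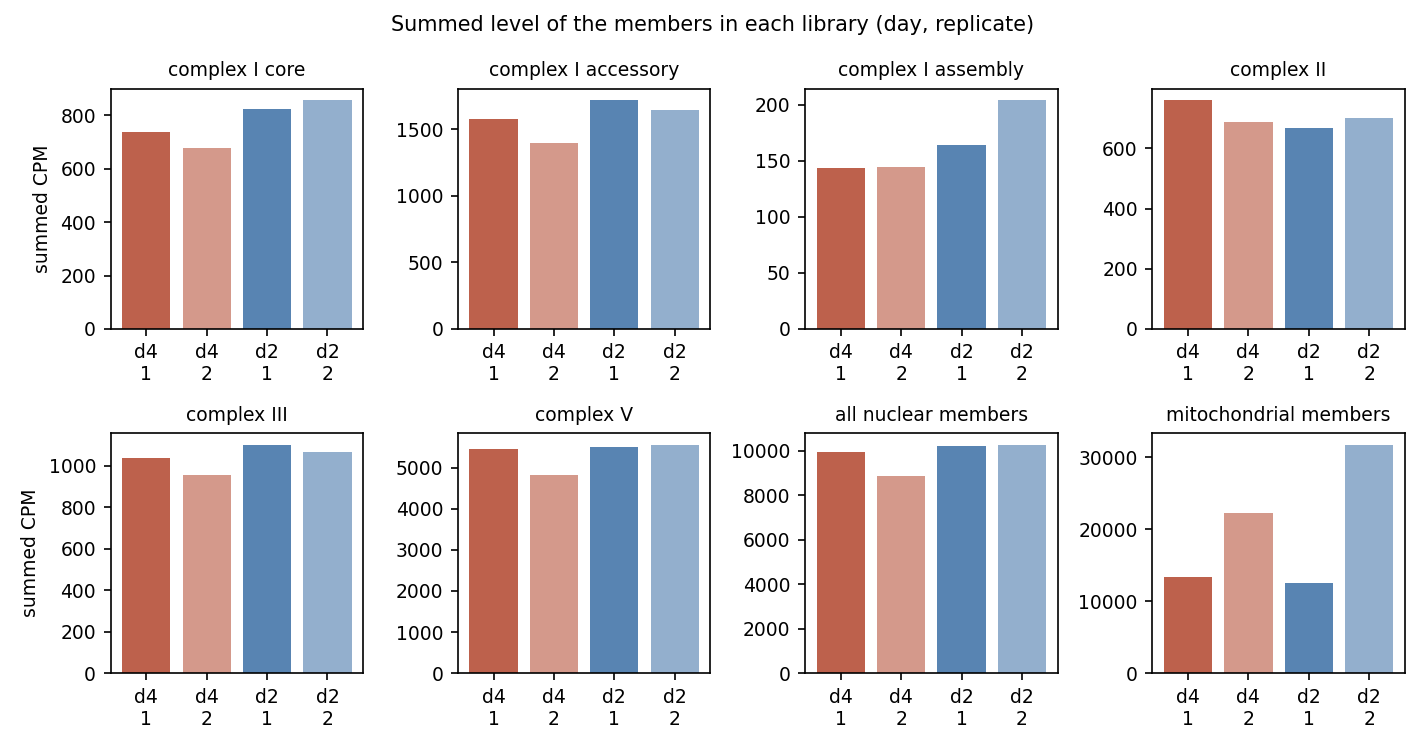
Summed level (TMM-scaled CPM, bars from 0) of the members of each nuclear complex, of all nuclear members and of the mitochondrial members in each library, d4 replicates 1 and 2 left and d2 replicates 1 and 2 right. Except for complex II, whose days overlap, each nuclear sum is lower in both d4 libraries than in both d2 libraries. The mitochondrial sum is set apart by replicate, with 13310 and 22200 CPM at d4 and 12570 and 31720 CPM at d2.

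Promoters were read as a feature that the choice of members did not use. The RefSeq promoter table (GRCm38.p6, 250 bases before to 50 bases from the gene start on) held 63 nuclear members. The palindromic site of nuclear respiratory factor 1, an activator known for respiratory chain genes, occurred on either strand in 17 of 63 member promoters, or 27.0%, against 4.78% of 27025 promoters. The letters CCGGAAGT, the core bound by ETS factors such as GABPA, occurred in 4 of 63, or 6.35%, against 4.0%. Promoters of all genes, expressed or not, were counted, and a match is a description of letters only. The promoters of the members with the first motif and the highest mean CPM, Sdha (chr13:74350191-74350490, minus strand) and Atp5g3 (chr2:73911277-73911576, minus strand), are printed to show it, with the motif in capitals.
Sdha: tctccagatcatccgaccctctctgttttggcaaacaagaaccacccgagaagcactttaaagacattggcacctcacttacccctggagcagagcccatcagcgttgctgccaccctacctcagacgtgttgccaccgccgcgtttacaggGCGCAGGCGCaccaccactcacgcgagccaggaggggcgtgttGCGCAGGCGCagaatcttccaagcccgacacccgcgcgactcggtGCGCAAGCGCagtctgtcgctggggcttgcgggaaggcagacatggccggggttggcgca
Atp5g3: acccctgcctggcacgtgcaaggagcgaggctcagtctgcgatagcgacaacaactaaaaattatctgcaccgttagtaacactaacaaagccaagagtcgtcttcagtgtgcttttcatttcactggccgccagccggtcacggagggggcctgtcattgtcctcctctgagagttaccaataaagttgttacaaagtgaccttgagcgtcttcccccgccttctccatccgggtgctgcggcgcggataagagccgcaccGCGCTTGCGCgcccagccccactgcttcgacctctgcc
Sdha held 3 matches and Atp5g3 held 1. The transcript of Nrf1 itself had 76.8 and 74.0 CPM at d4 against 94.8 and 86.6 CPM at d2, with a log2 fold change of -0.27 that was not called.

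The 13 mitochondrial genes were measured with far more spread. The mitochondrial genome gave 1.44% and 2.36% of all counts at d4 against 1.33% and 3.07% at d2. On each day replicate 2 was above replicate 1, by a median ratio over the 10 tested genes of 1.54 at d4 and 2.49 at d2, whereas for nuclear members the same ratio was 0.894 at d4 and 0.98 at d2. All 10 tested genes had overlapping days, and none was called, against 24.3% of all genes tested. The median log2 fold change of -0.18 was -0.72 without d2 replicate 1 and 0.64 without d2 replicate 2, so no direction can be read from it. With so few libraries the smallest two-sided p of an exact permutation test is 0.333.

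Base composition moved with the same libraries. The mitochondrial members had a median GC content of 37.1%, against 49.7% over all genes tested and 50.0% over nuclear members, and across genes, which are not independent replicates, replicate 2 was relatively higher for genes of low GC content on each day (Spearman's rho of deviation with GC content -0.502 at d4 and -0.739 at d2). With a GC correction of the libraries the median log2 fold change of the mitochondrial genes was 0.19, the other direction. The part of base composition in the mitochondrial values was not tested further.

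Of the mitochondrial complex I genes, mt-Nd1 had 2546 and 3509 CPM at d4 against 1713 and 5042 CPM at d2, with the d4 libraries between the d2 libraries. The log2 fold change was -0.16 (95% interval -1.26 to 0.95). mt-Nd2, mt-Nd4 and mt-Nd5 showed the same order of libraries, with log2 fold changes of -0.04, -0.25 and 0.03. mt-Nd6 is the one protein-coding gene read from the other, light strand, and had 223 and 703 counts at d4 against 450 and 653 at d2. Its log2 fold change was -0.52 (95% interval -1.41 to 0.38), and it was not called, whereas without d4 replicate 2 it was called lower, with a log2 fold change of -1.19 (edgeR adjusted p = 0.00562).

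mt-Cytb, the mitochondrial subunit of complex III, had 2112 and 3662 CPM at d4 against 2422 and 5864 CPM at d2. mt-Co1, the catalytic subunit of complex IV and the most abundant member, had 5496 and 10190 CPM at d4 against 6029 and 14820 CPM at d2. In both genes the higher d4 library lay between the d2 libraries. Their log2 fold changes were -0.52 (95% interval -1.57 to 0.52) and -0.41 (-1.50 to 0.68).

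Within the mitochondrial protein-coding counts the shares differed less between libraries than the levels did. mt-Co1 made up 41.3% and 45.9% at d4 against 48.0% and 46.7% at d2, and mt-Cytb 15.9% and 16.5% at d4 against 19.3% and 18.5% at d2. mt-Nd2 made up 9.0% and 8.73% at d4 against 6.89% and 7.43% at d2, and mt-Nd5 8.75% and 7.75% at d4 against 6.6% and 6.31% at d2. For these 4 genes the days did not overlap, the shares of mt-Co1 and mt-Cytb being lower and those of mt-Nd2 and mt-Nd5 higher at d4. By level, all 10 tested mitochondrial genes overlapped, whereas 35.2% of all genes tested were lower and 35.8% higher at d4 without overlap. Those percentages are for levels, and no such value was made for shares of a total. The very small shares of mt-Co2, mt-Atp6, mt-Nd3 and mt-Nd4l were also higher at d4 without overlap. The mt-Nd1 share, 19.1% and 15.8% at d4 against 13.6% and 15.9% at d2, overlapped, as did those of mt-Nd4, mt-Nd6, mt-Co3 and mt-Atp8. Shares of 1 total depend on each other, and they were not tested.

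**Figure D4:**
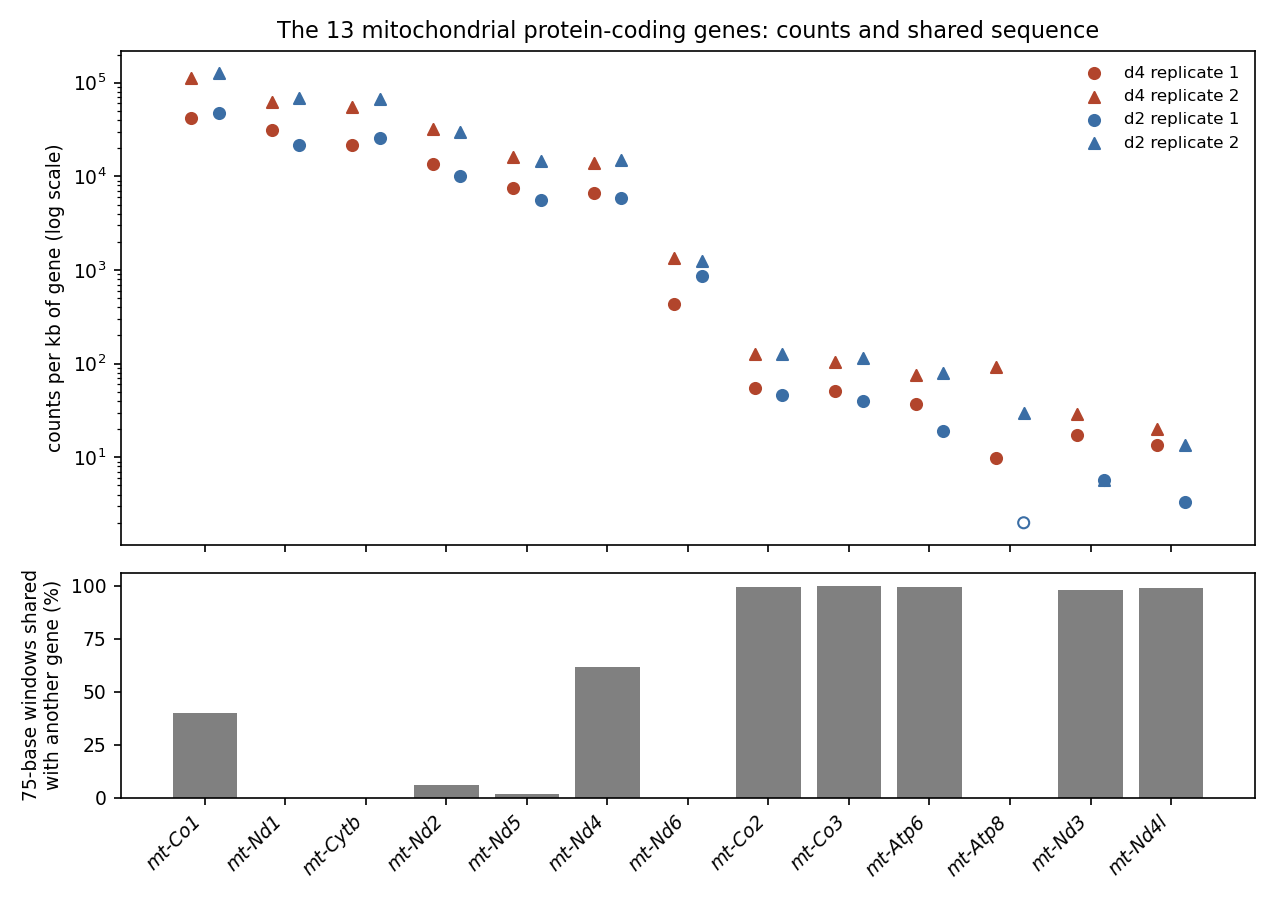
Counts per kb of gene (log axis) of the 13 mitochondrial protein-coding genes in each library, d4 left and d2 right within a gene, over the share of each gene's 75-base windows that also occur in transcripts of another gene. The open circle is a count of 0, drawn at the foot of the axis. mt-Co2, mt-Co3, mt-Atp6, mt-Nd3 and mt-Nd4l, with over 97% of windows shared, lie far below mt-Co1 in each library.

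The other mitochondrial genes were nearly absent from the count table, although they lie on the same polycistronic RNA. mt-Co2 had 55.6 and 127 counts per kb at d4 against 46.8 and 127 at d2, whereas mt-Co1 had 42030 and 112200 counts per kb at d4 against 47720 and 126300 at d2. mt-Co3, mt-Atp6, mt-Nd3 and mt-Nd4l were in the same range or below it. These 5 genes have annotated copies of mitochondrial sequence on nuclear chromosome 1 (mm10 chr1:24611535-24616197), and 97.8% to 99.9% of their 75-base windows also occurred in transcripts of other genes, such as these copies. The authors' counting left out reads that map to several places. For mt-Co1 and mt-Nd4, which had many counts, 39.8% and 61.5% of windows were shared, and for mt-Nd1, mt-Cytb and mt-Nd6 0%.

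The extent of identity is shown by bases 181 to 255 of mt-Co2 (chrM:7193-7267, plus strand), beside its copy Gm28661 on chromosome 1 (chr1:24615311-24615385, minus strand) and a more diverged copy, Gm13341, on chromosome 2 (chr2:22587708-22587782, minus strand). The sequences are from the GENCODE M21 transcripts, and capitals mark the bases at which Gm13341 differs from mt-Co2.
mt-Co2: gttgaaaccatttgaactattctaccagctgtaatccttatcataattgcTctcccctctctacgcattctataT
Gm28661: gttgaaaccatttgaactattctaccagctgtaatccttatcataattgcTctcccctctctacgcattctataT
Gm13341: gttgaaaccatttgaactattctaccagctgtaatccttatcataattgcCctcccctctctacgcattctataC
Gm28661 matched mt-Co2 at each of these 75 bases and, without gaps, at all 681 bases it shares with the 684 bases of the gene. Counts of Gm28661 were 65 and 114 at d4 against 57 and 124 at d2, near those of mt-Co2 itself, with 38 and 87 at d4 against 32 and 87 at d2. The levels of mt-Co2, mt-Co3, mt-Atp6, mt-Nd3 and mt-Nd4l are therefore uncertain, and the part of the shared sequence in their low values was not tested. mt-Atp8, for which no annotated transcript shared a window, had 2 and 19 counts at d4 against 0 and 6 at d2. It starts between the end of mt-Co2 and the start of mt-Atp6. The stretch between the copies of those genes on chromosome 1 was not compared, as windows were matched to annotated transcripts and not to the genome. A copy of mt-Atp8 there would have been missed, so its level is uncertain too.

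Genes of the pathway outside the symbols above were read in the same fit. Of 104 such genes tested, 5 were higher and 3 lower at d4, against 12.9% and 11.3% of all genes tested. Their median log2 fold change was -0.14, beside -0.03 over all genes tested. All 8 calls were lost without either d2 library, as were those of the whole table. Of 14 nuclear complex IV subunits tested, Cox4i2 rose and Cox7c fell. Cox4i2, a COX4 isoform known from lung and from low oxygen, had 167 and 183 counts, or 14.1 and 10.8 CPM, at d4 against 5 and 5 counts, or 0.41 and 0.38 CPM, at d2. The days were far apart, with a log2 fold change of 4.95 (SE 0.37, edgeR adjusted p = 0.000144). Cox4i2 gave 4.6% and 4.37% of COX4 counts at d4 against 0.173% and 0.204% at d2, so Cox4i1 remained the main isoform. Cox7c, a small membrane subunit, had 87.5 and 93.0 CPM at d4 against 173 and 161 CPM at d2. Its log2 fold change of -0.89 (SE 0.19) passed narrowly with an edgeR adjusted p of 0.00981. The call was lost without any 1 library and with the GC correction (edgeR adjusted p = 0.107, or 0.0108 with the replicate block added). It was also lost with DESeq2 size factors (edgeR adjusted p = 0.0103), after thinning to the smallest library (edgeR adjusted p = 0.0109) and where a log2 fold change of at least 1 was required.

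Among carriers, Slc25a4 and Slc25a5 exchange ADP and ATP across the inner membrane, Slc25a4 being the isoform of heart and muscle. Slc25a4 had 374 and 400 CPM at d4 against 86.3 and 82.8 CPM at d2, with a log2 fold change of 2.19 (SE 0.19, edgeR adjusted p = 0.00023). It made up 35.0% and 44.3% of the counts of the carrier family at d4 against 12.4% and 10.4% at d2. Mpc2, a subunit of the mitochondrial pyruvate carrier, had 149 and 174 counts at d4 against 48 and 58 at d2 and rose by 1.45 on the log2 scale (SE 0.27, edgeR adjusted p = 0.00576). Cyct, the cytochrome c of testis, had 0 counts in both d4 libraries against 13 and 26 at d2 and fell (edgeR adjusted p = 0.00394), whereas the somatic gene gave nearly all cytochrome c counts in each library.

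Of 14 tested genes of mitochondrial transcription, replication and RNA, Polg, the catalytic subunit of the mitochondrial DNA polymerase, rose, with 499 and 469 CPM at d4 against 186 and 141 CPM at d2 and a log2 fold change of 1.57 (SE 0.22, edgeR adjusted p = 0.00152). Ssbp1, which coats single-stranded mitochondrial DNA, fell, with 72.8 and 85.3 CPM at d4 against 152 and 191 CPM at d2 and a log2 fold change of -1.12 (SE 0.22, edgeR adjusted p = 0.00656). Most of the list leaned the way of Ssbp1. Of its estimates, 12 of 14 were negative, with a median of -0.58, beside 51.4% and -0.03 over all genes tested. Both d4 libraries were below both d2 libraries for 10 of 14 genes, beside 35.2% of all genes tested. The call of Ssbp1 was lost without d4 replicate 1 (edgeR adjusted p = 0.0216). Of 10 tested regulators, Myc, an activator of growth and of many mitochondrial genes, rose, with 124 and 79.1 CPM at d4 against 11.1 and 8.43 CPM at d2 (log2 fold change 3.38, SE 0.31, edgeR adjusted p = 0.00028).

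None of 17 genes listed for the tricarboxylic acid cycle was called, whereas 24.3% of all genes tested were called. The median log2 fold change of the list was 0.03. It included Pdha1, Pdhb and Dlat, which encode subunits of the pyruvate dehydrogenase complex. Idh2, the mitochondrial NADP-dependent isocitrate dehydrogenase, came nearest, with 125 and 104 CPM at d4 against 68.3 and 56.3 CPM at d2 and an edgeR adjusted p of 0.0167. None of 21 assembly factors of complexes III and IV was called, nor was any of 15 further genes listed for complexes I, II and V. Most of these 15 encode assembly factors, whereas Atpif1 encodes an inhibitor and Usmg5 a subunit of complex V. Among the 15, Tmem70, which helps to build the subunit c ring, had 40.5 and 36.2 CPM at d4 against 14.2 and 21.6 CPM at d2. Ecsit, of complex I assembly, had 19.5 and 20.0 CPM at d4 against 38.4 and 32.1 CPM at d2. The days did not overlap for either, with edgeR adjusted p values of 0.0158 and 0.0205.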

How the data were processed

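RNA-seq libraries of d4 and d2 cells (2 each) were analysed from the gene counts deposited by the authors, whole-number read counts per gene with no normalization. Per the study's methods, paired 75-base reads of strand-specific libraries were trimmed with cutadapt, aligned to mm10 (GRCm38) with STAR and counted with featureCounts by strand, without reads that map to several places; FastQC was used for quality. Multi-mapping sequence therefore lowers the count of a gene that has a copy. Of 55487 gene IDs, 55227 were found in GENCODE M21, which gave chromosomes, lengths and transcripts. Library sizes in the main fit and for CPM were summed over the genes that passed the filter.

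Genes past a proportion test at 0.5 CPM (adjusted p under 0.05) were kept, 14932 in all. Counts were compared with edgeR 4.0.16 (R 4.3.3; TMM, two-sided quasi-likelihood test of day, no other term, Benjamini-Hochberg over all genes kept, threshold 0.01), whose common biological coefficient of variation was 23.6%. The standard error is the log2 fold change over the square root of F. DESeq2 1.42.0, limma 3.58.1, other scalings, filters and thresholds, a GC correction, a replicate block and leaving out each library were alternatives. Windows of 75 bases were matched exactly against the transcripts of all other genes, on the same strand or the other, so antisense and overlapping genes count as sharing. p-values measure only the spread between these libraries.

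Members and lists were chosen with earlier results of these data known. All mitochondrial genes, the called genes and the 2 most abundant members of each nuclear group were to be named, with up to 4 called genes per pathway list or the 2 of smallest adjusted p; further members, such as Ndufaf3, Ndufs4, Ndufa8, Atp5e, Atp5s and the Atp5g genes, were named after their values were seen. 1 gene that the rule names is not reported here.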

Additional observations from a re-analysis of the deposited data

How the results depend on the processing

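Ndufa4l2 was higher at d4 in all alternatives run, with the call lost only without d2 replicate 1 or d2 replicate 2, where edgeR called 0 genes (unadjusted p under 0.05 for 6257 and 5973 genes). Called members, 1 higher and 0 lower, became 2 and 2 without the filter, 2 and 2 with GC offsets, 2 and 5 with GC offsets and the replicate block, and 1 and 2 with upper-quartile factors, DESeq2 or an adjusted p under 0.05. Leaving out 1 library gave 0 to 1 higher and 0 to 1 lower members, 0 to 2264 higher and 0 to 2458 lower genes, 0 to 7 higher and 0 to 5 lower pathway genes, a nuclear median of -0.271 to -0.0542 and a mitochondrial median of -0.72 to 0.64. All genes, 1933 higher and 1694 lower, became 2901 and 2873 without the filter, 3079 and 2909 with GC offsets and the block, and 2991 and 2679 at an adjusted p under 0.05. Pathway genes, 5 higher and 3 lower, became 8 and 7 without the filter, 9 and 7 with GC offsets, 11 and 10 with both, and 9 and 9 at an adjusted p under 0.05; 5 were lower with upper-quartile factors or DESeq2. The causes were not tested. The median nuclear level of 147 TPM was 136 TPM by the union of exons and, an alternative chosen after seeing the data, 159 TPM by the longest CCDS transcript.

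Same-numbered libraries of the 2 days deviated together (correlation over genes 0.482), but the labels do not say what a number stands for. With the replicate block 3 members were higher (Ndufa4l2, Ndufa8, Atp5s) and 5 lower (Ndufaf3, Ndufs4, Atp5e, Uqcrb, mt-Nd6, the last with a log2 fold change of -0.60 and an edgeR adjusted p of 0.00811), 12 pathway genes were higher and 19 lower, and 3478 genes were higher and 3496 lower.

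Of 828 values for single named genes, 709 kept their direction and side of the threshold, 48 passed it only in the alternative, 26 passed it only in the main setting and 45 changed sign, none of these in a gene called in either setting. With GC offsets and without the block mt-Nd1, mt-Nd2, mt-Nd4, mt-Co2 and mt-Co3 had log2 fold changes of 0.27, 0.41, 0.20, 0.18 and 0.11, and with the replicate block added 0.33, 0.45, 0.21, 0.18 and 0.12. mt-Nd1, mt-Nd2 and Sdhd had 0.0251, 0.0960 and -0.0035 in limma voom and 0.0239, 0.0931 and -0.0012 with the replicate block alone. Sdhd had -0.0046 with 1 CPM in 2 libraries, -0.0092 in DESeq2, -0.0091 with DESeq2 size factors and -0.0794 with upper-quartile factors, where mt-Atp6 and mt-Nd5 had -0.0707 and -0.0516, and mt-Atp6 had -0.0683 after thinning. Leaving out 1 library gave -0.73 to 0.77 for mt-Nd1, -0.58 to 0.81 for mt-Nd2, -0.73 to 0.45 for mt-Nd4, -0.47 to 0.75 for mt-Nd5, -1.01 to 0.21 for mt-Cytb, -0.92 to 0.34 for mt-Co1, -0.65 to 0.63 for mt-Co2, -0.75 to 0.64 for mt-Co3, -0.64 to 1.24 for mt-Atp6, -0.33 to 0.0698 for Ndufaf1, -0.16 to 0.16 for Sdhd, -0.134 to 0.0044 for Atp5a1 and -0.20 to 0.36 for Atp5g3.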
